A study of Mus musculus with 7 samples.

Results

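The microRNA miR-210 and the miR-34 family were followed in kidneys of the megabladder mouse, a mutant line in which the bladder forms without normal smooth muscle, so that urine is held back and the kidneys dilate. The 5 microRNAs are mmu-miR-210, mmu-miR-34a, mmu-miR-34b-5p, mmu-miR-34b-3p and mmu-miR-34c (mmu- for mouse, left out from here on unless values are introduced), taken by name from 611 mouse microRNAs on the array. Each was read by 2 probes. Wild-type kidneys (mgb+/+) came from 4 mice and megabladder kidneys (homozygous mgb-/-) from 3 mice, numbered 1 to 4 and 2 to 4 in the labels. All mice were males labelled as 4 weeks old, with 3.5 to 4 weeks given in the protocol, and no treatment is named. A mutant group of 4 kidneys is named in the design, but the samples include no mutant kidney numbered 1. Total RNA of a whole kidney was labelled with Cy3 and hybridised to 1 array per mouse, so a change in the number of cells of a type cannot be told apart from a change in RNA per cell. The labels name a separate mouse for each array.

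miR-210 is the microRNA most widely induced by low oxygen. Its gene is a target of the hypoxia-inducible factors, and it represses proteins of mitochondrial respiration such as ISCU. The miR-34 genes are direct targets of the tumour suppressor p53, and their products lower cyclins, cyclin-dependent kinases, MET and BCL2, which slows the cell cycle and favours senescence or apoptosis. miR-34a is transcribed on its own and is found in many tissues, while miR-34b and miR-34c share a primary transcript that is known for its abundance in multiciliated epithelia, testis and lung. Hypoxia of tubules and growth arrest of injured epithelium are both known from obstructed kidneys in general, which is the question that the comparison of the genotypes addresses for these microRNAs.

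The sequences are shown because a microRNA pairs with messenger RNAs mainly through its seed, bases 2 to 8 from the 5′ end, given here in capitals, so that members with 1 seed share most predicted targets. They are the RefSeq mature sequences (GRCm38.p6), found for 4 of the 5 members but not for miR-34c. miR-449a and miR-449c were added because they carry the miR-34 seed.
miR-210 (3p arm): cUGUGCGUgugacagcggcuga
miR-34a (5p arm): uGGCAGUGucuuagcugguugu
miR-34b-5p: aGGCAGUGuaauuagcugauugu
miR-449a (5p arm): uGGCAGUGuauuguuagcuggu
miR-449c (5p arm): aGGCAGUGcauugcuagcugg
miR-34b-3p: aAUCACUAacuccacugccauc
miR-34a and miR-34b-5p have the seed GGCAGUG, which 4 of 1679 mouse mature microRNAs in the RefSeq table carry. miR-34c had no sequence there, so this count leaves it out and does not tell whether it has this seed. With a gap of 1 base after base 9 of miR-34a, 19 of its 22 bases match miR-34b-5p. miR-34b-3p, from the opposite arm of the miR-34b hairpin, has another seed. No other microRNA in the table has the seed of miR-210. The array files name build mm9, so no coordinates are given.

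The arrays found 213 to 239 mouse microRNAs by the scanner software's own detection call, and 19.0% to 21.8% of probes were well above background. The 7 arrays were on 1 slide. Each genotype filled a slide row of its own, and row and genotype effects cannot be told apart. The value by which each array was scaled, the 75th percentile of the 292 probes detected on every array, ran from 348.1 to 495.8 scanner units over the wild-type arrays and from 223.5 to 333.4 units over the megabladder arrays. Levels below are log2 scanner units after this scaling, and values under a floor of 11.4 units (3.51 on the log2 scale) were set to it. After scaling, 4 of the 5 members were tested among 213 microRNAs, since they had a probe that was well above background on 3 or more arrays, and miR-34b-3p had none.

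None of the 4 tested members passed an adjusted p under 0.05 between the genotypes, where 7 of all 213 microRNAs (3.29%) did, 6 of them higher (2.82%) and 1 lower (0.469%) in megabladder kidneys. At an unadjusted limma p under 0.05 there were also 0 of 4 members, against 23% of all tested microRNAs. At an unadjusted exact permutation p under 0.05 there were 0 of 4 members, against 28 of all 213 microRNAs. None had groups that did not overlap, which 22.1% of all tested microRNAs had. The numbers of higher and lower differences were equal, with miR-210 and miR-34b-5p higher and miR-34a and miR-34c lower in the mean of the megabladder kidneys. In all 4 the single megabladder value above the wild-type mean was that of mouse 3.

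mmu-miR-210, the hypoxia-induced member, stood at 4.18, 4.70, 4.58 and 4.05 log2 units in wild-type mice 1 to 4 and at 4.05, 5.82 and 4.12 in megabladder mice 2, 3 and 4. Megabladder mouse 3 lay above all wild-type mice, while megabladder mice 2 and 4 lay at the low end of the wild-type range. The wild-type mean was 4.38 ± 0.31 (SD, n = 4) and the megabladder mean 4.67 ± 1.00 (SD, n = 3). The difference of 0.29 log2 units had a standard error of 0.44, a 1.22-fold higher mean with a 95% interval of 0.596-fold to 2.49-fold (limma, adjusted p = 0.799). The 2-sided exact permutation p was 0.8286, where 35 splits of the arrays allow no p below 0.0286. Without megabladder mouse 3 the difference was -0.32 (limma, adjusted p = 0.385). The sign of the difference in means therefore rested on 1 of 3 mutant kidneys.

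Both probes of miR-210 showed the high value of megabladder mouse 3, and it was present before scaling. The brighter probe read 29.6, 47.7, 48.8 and 24.2 scanner units in wild-type mice 1 to 4 and 18.8, 78.6 and 17.1 units in megabladder mice 2, 3 and 4. The dimmer probe read 37.8 units in megabladder mouse 3 and at most 24.0 units elsewhere, and in megabladder mice 2 and 4 it was not well above background. In these 2 mice and in wild-type mouse 4 it was set to the floor, which draws their levels together. The brighter probe alone, never at the floor, stood at 4.60 and 4.73 log2 units in megabladder mice 2 and 4 and at 4.59 in wild-type mouse 4. The SD over the spots of the brighter probe in megabladder mouse 3 was 5.07 units, which measures the noise within that array and not the spread between mice. In the authors' deposited table of processed values miR-210 has 44, 55, 64 and 49 units in the wild-type columns. The megabladder columns hold 40, 86 and 38 units, with megabladder mouse 3 highest there too. That table comes from the same arrays. After the arrays were aligned, its miR-210 values lay a mean of 0.61 log2 units from the scanner software's total signal.

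**Figure D1:**
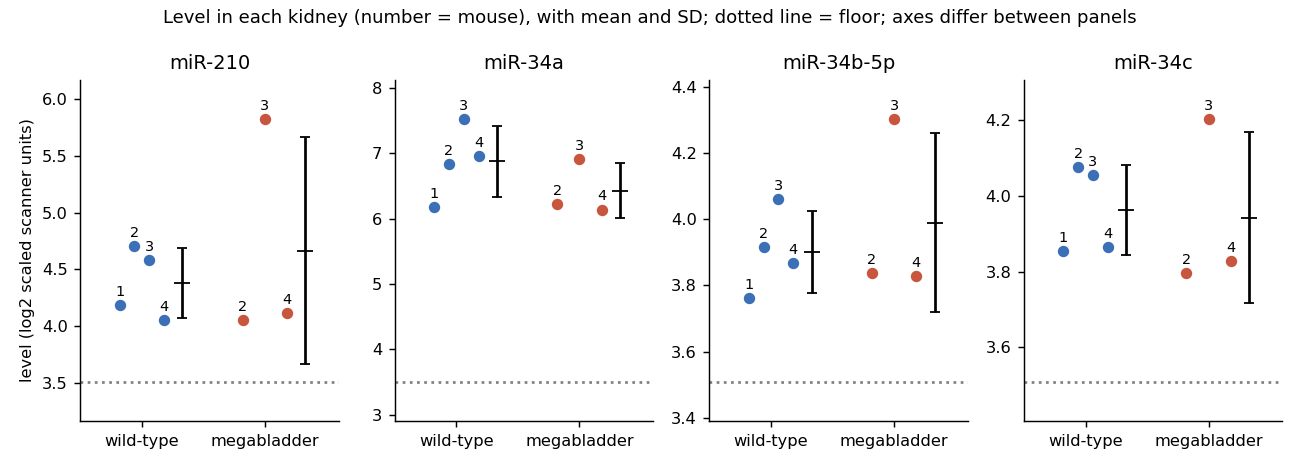
Level of miR-210, miR-34a, miR-34b-5p and miR-34c (log2 scaled scanner units, vertical axis, a separate range per panel) in each wild-type (blue) and megabladder (red) kidney, with the mouse number at each point, the group mean with SD as a bar and the floor of 3.51 as a dotted line. Megabladder mouse 3 is the highest of the 3 mutant kidneys in every panel, and for miR-210 it stands at 5.82 against 4.05 and 4.12.

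mmu-miR-34a is the p53 target that is found in most tissues. Its level was 6.18, 6.84, 7.52 and 6.95 log2 units in wild-type mice 1 to 4 and 6.23, 6.91 and 6.14 in megabladder mice 2, 3 and 4. Wild-type mouse 3 was highest and megabladder mouse 4 lowest, and wild-type mice 1 and 2 lay within the range of the mutant values. The wild-type mean was 6.87 ± 0.55 (SD, n = 4) and the megabladder mean 6.43 ± 0.42 (SD, n = 3). The difference of -0.45 had a standard error of 0.33, a 1.36-fold lower mean, with a 95% interval from 2.33-fold lower to 1.25-fold higher (limma, adjusted p = 0.512). The exact permutation p (2-sided) was 0.286. Single wild-type mice differed by up to 2.53-fold, a range that is not the same measure as the difference of means.

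The 2 probes of miR-34a gave like differences, -0.47 and -0.43, and both were well above background on all arrays. Before scaling the brighter probe read 125.1, 233.5, 427.4 and 201.0 units in wild-type mice 1 to 4 and 95.2, 194.2 and 70.0 units in megabladder mice 2, 3 and 4. In 17 tested microRNAs of repeat-rich families (miR-466, miR-467, miR-669 and related) the median level was 5.35 to 5.92 in 5 kidneys, while wild-type mice 3 and 4 had a median at the floor (3.51). Wild-type mice 3 and 4 also held the highest wild-type values of miR-34a, so leaving them out had to shrink its difference. Without both of these mice the miR-34a difference was -0.10 (limma, adjusted p = 0.978), and without wild-type mouse 3 alone it was -0.23. Without wild-type mouse 1, the lowest of its group, it was -0.67 (limma, adjusted p = 0.233). Without megabladder mouse 3 it was -0.69 (limma, adjusted p = 0.315). The negative sign held under all alternatives run, with values from -1.17 to -0.047.

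mmu-miR-34b-5p and mmu-miR-34c, products of 1 primary transcript, were dim in all kidneys. miR-34b-5p stood at 3.76, 3.92, 4.06 and 3.87 log2 units in wild-type mice 1 to 4 and at 3.84, 4.30 and 3.83 in megabladder mice 2, 3 and 4. Its difference was 0.088 with a 95% interval of -0.25 to 0.43 (limma, adjusted p = 0.820). miR-34c stood at 3.86, 4.08, 4.05 and 3.86 in the wild-type mice and at 3.80, 4.20 and 3.83 in megabladder mice 2, 3 and 4. Its difference was -0.020 with an interval of -0.33 to 0.29 (limma, adjusted p = 0.953). For both, the groups overlapped and megabladder mouse 3 was the highest of all 7 kidneys, which did not hold with scaling by all mouse probes, with quantiles, unscaled, with normexp background correction or in the deposited table.

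The low signal limits both values. The dimmer probe of miR-34b-5p was well above background on 3 arrays and at the floor on 4, which draws its mice together. The brighter one read 11.4 to 32.5 units before scaling and was well above background on all 7 arrays. miR-34c rests on 1 probe that read 9.18 to 23.8 units and was not well above background in megabladder mouse 4. Its other probe stayed near background on all 7.

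mmu-miR-34b-3p, the opposite arm of the miR-34b hairpin, had no array on which either probe was well above background, and the scanner software called it detected on 0 of 7 arrays. Its 2 probes read 4.43 to 7.88 units in wild-type mice 1 and 2 and in the 3 megabladder mice, and -0.906 to 0.633 units in wild-type mice 3 and 4. None of these signals was well above background, so their order between kidneys is not read as a difference in miR-34b-3p. Of 1298 mouse probes that were not well above background on any array, 144 (11.1%) likewise read lowest in wild-type mice 3 and 4 after scaling. A share to be reached by noise alone was not computed. Both mice were also set apart in the repeat-rich families above, and the cause was not tested. No fold is given for miR-34b-3p, since all its values were under the floor.

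**Figure D2:**
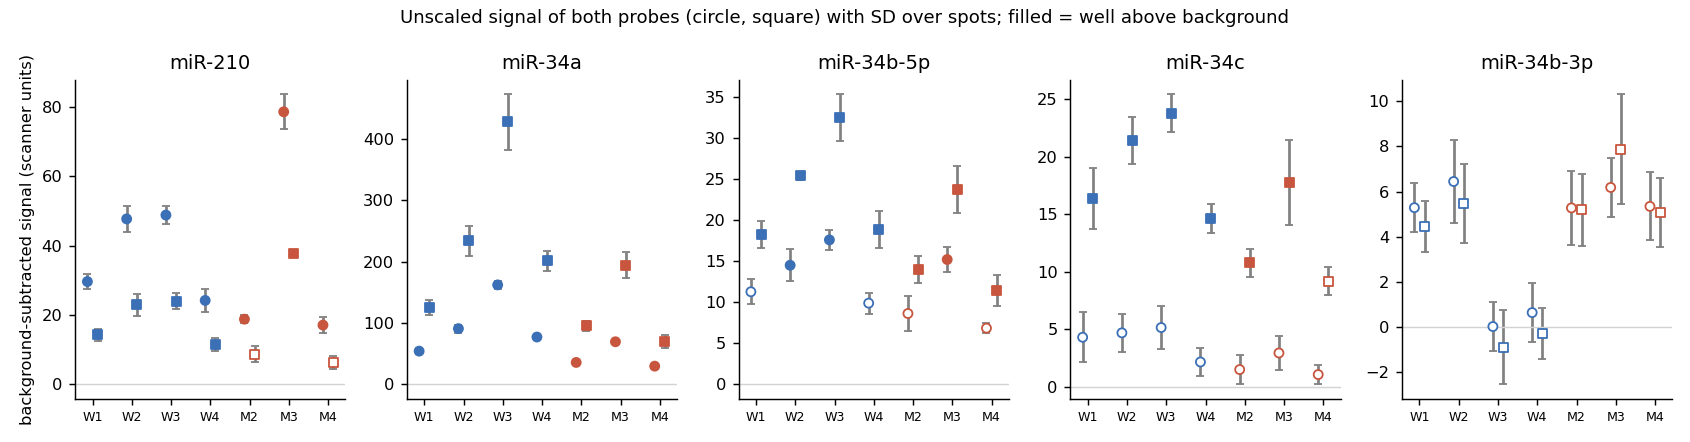
Background-subtracted signal before scaling (scanner units, vertical axis, a separate range per panel) of the 2 probes of each member, as circles and squares, in wild-type (blue, W1 to W4) and megabladder (red, M2 to M4) kidneys, with the SD over spots as bars and open symbols where a probe was not well above background. For miR-210 megabladder mouse 3 reads 78.6 and 37.8 units, while both probes of miR-34b-3p stay under 8 units and lie near 0 in wild-type mice 3 and 4.

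Differences between members within an array do not depend on the array's scaling, apart from the floor, so they show whether members moved apart between genotypes. Of 6 pairs, none had an exact permutation p (2-sided, Benjamini-Hochberg over the pairs) under 0.05. With no p below 0.0286 possible, no single pair could pass after this adjustment. The test therefore cannot decide whether a single pair moved apart. miR-34a relative to miR-34b-5p was 0.54 log2 units lower in megabladder kidneys, with a wild-type mean of 2.97 ± 0.43 (SD, n = 4) and a megabladder mean of 2.44 ± 0.16 (SD, n = 3) (exact permutation p = 0.114, adjusted p = 0.386). This difference was 2.42, 2.92, 3.46 and 3.08 in wild-type mice 1 to 4 and 2.39, 2.61 and 2.31 in megabladder mice 2, 3 and 4. The groups overlapped through wild-type mouse 1. Without wild-type mice 3 and 4, which had the highest values, the change was -0.23. Without wild-type mouse 1, the lowest of its group, it was -0.71. miR-210 relative to miR-34a was 0.73 higher in megabladder kidneys (exact permutation p = 0.257, adjusted p = 0.386). It was 0.37 higher without megabladder mouse 3, 0.36 without wild-type mice 3 and 4, and 0.90 without wild-type mouse 1. miR-34b-5p and miR-34c stayed nearest to each other, with a change of 0.11 between genotypes and SDs of 0.081 and 0.050 inside the groups. Both lay near the floor, and 1 probe of miR-34b-5p was at it on 4 arrays, which limits how far they can differ.

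The spread inside the megabladder group was larger for miR-210 than for any other tested microRNA. Its SD over the 3 megabladder mice was 1.00 log2 units, the largest of 213, against a median of 0.20 over all tested microRNAs. The SD of miR-494 was close to it, at 0.96, and that of miR-205 was 0.76. This order of SDs was taken with the main processing only. Over the 4 wild-type mice the SD of miR-210 was 0.31, the 43rd largest, where the median was 0.14. Megabladder mouse 3 exceeded the mean of megabladder mice 2 and 4 by 1.74 log2 units, or 3.33-fold, and the next microRNA in that order, miR-96, by 1.09. The corresponding value was 0.73 for miR-34a (8th of 213), 0.47 for miR-34b-5p (17th) and 0.39 for miR-34c (21st), while the median over all tested microRNAs was -0.17. Mouse 3 was the highest of the 3 megabladder kidneys for 54 of 213 microRNAs (25.35%), the 4 tested members among them. This contrast of 1 mouse with 2 others was chosen after its values were seen and has no test.

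miR-210 kept the first place in this order with the main scaling and the 4 other scalings, in the scanner software's total signal and in the deposited table (1.14 over 191 microRNAs). It lost it with normexp background correction, where mouse 3 exceeded the mean of mice 2 and 4 by 0.037 and stood 25th, and where mouse 3 lay below that mean for miR-34b-5p (-0.48) and miR-34c (-0.50). Under all of these settings, normexp included, megabladder mouse 3 remained above the highest wild-type value of miR-210, by 0.23 to 1.13 log2 units. That correction gave a median probe value of 123 units in megabladder mouse 4 and 98.8 units in wild-type mouse 2, against 57.5 to 65.2 units on the other 5 arrays, while the median signal minus local background was 9.58 to 12.0 units on all 7.

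**Figure D3:**
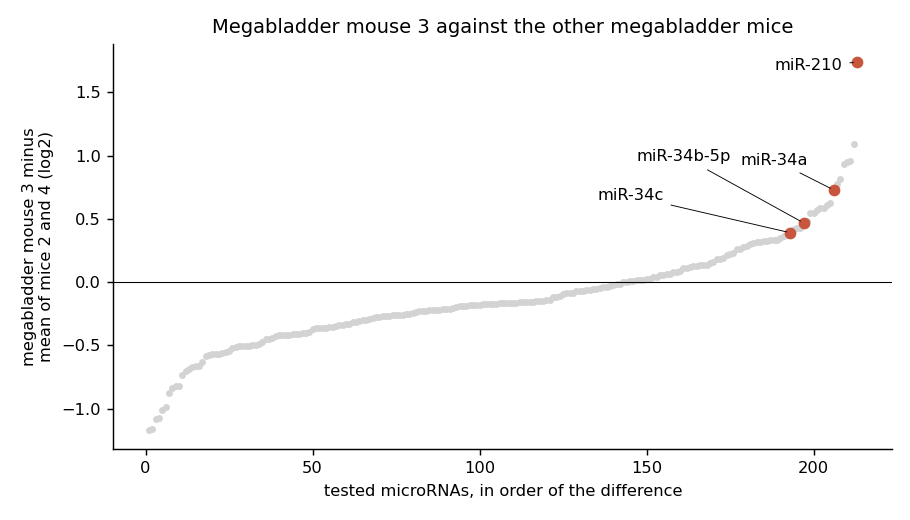
Difference between megabladder mouse 3 and the mean of megabladder mice 2 and 4 (log2, vertical axis) for 213 tested microRNAs in increasing order (horizontal axis), with the 4 tested members in red. miR-210 lies at 1.74, apart from the next value of 1.09, and the miR-34 members lie at 0.39 to 0.73.

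The microRNAs nearest in pattern were found from the root mean square difference over the 7 arrays, after each microRNA's own mean was subtracted. For miR-210 they were miR-148a (0.329 log2 units), miR-141 of the epithelial miR-200 family (0.336) and miR-181c (0.366), all with their highest value in megabladder mouse 3. For miR-34a they were miR-96 (0.255), miR-183 (0.332) and miR-7a (0.373). miR-96 was highest in megabladder mouse 3 and wild-type mouse 3, at 5.53 and 5.51, which for miR-34a were 6.91 and 7.52. miR-34b-5p and miR-34c were each other's nearest microRNA (0.0799), followed closely for both by miR-27a and miR-362-3p. These lay at 0.0949 and 0.0993 from miR-34b-5p and at 0.0829 and 0.0879 from miR-34c. None of these neighbours passed between genotypes, and for 3 kidneys against 4 the likeness is a description.

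Other microRNAs linked to the same pathways are read against the shares over all 213, of which 3.29% passed and 23% had an unadjusted p under 0.05. For lists this short a count of 0 passing lies near the overall share. Of 14 microRNAs associated with hypoxia, 13 were tested, with 0 higher, 0 lower, 0 at an unadjusted limma p under 0.05, and a median log2 difference of 0.048 against 0.087 over all tested microRNAs. They ranged from -0.20 for miR-26b, which targets EZH2, to 0.25 for miR-181c. The smallest p in that list was that of miR-26b (limma, adjusted p = 0.337), followed by miR-195 of the miR-15 family (-0.14) and miR-24 (0.11). Of 9 microRNAs that p53 raises by transcription or processing, 8 were tested and 0 passed (limma; 0 at an unadjusted p under 0.05), with a median of -0.013. miR-145 and miR-143, which p53 helps to process and which mark smooth muscle, had 0.24 and 0.091, and miR-107 had -0.19. miR-215 was not well above background on enough arrays.

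Of 4 microRNAs that repress p53 itself, miR-30d (0.26), miR-25 (0.16) and miR-125b-5p (0.045) were tested, and none passed (limma; 1 at an unadjusted p under 0.05). miR-30d had the smallest p of these (limma, adjusted p = 0.214), and miR-504 was not well above background on enough arrays. The relatives miR-449a and miR-449c, which carry the miR-34 seed, and miR-449b of the same family had 0 arrays with a probe well above background. miR-34c*, the opposite arm of the miR-34c hairpin, had 0 as well. The miR-449 genes are known from multiciliated cells.

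Markers of other cell types were read beside these values. None of the tested markers passed (limma), and 2 of 5 urothelial and 1 of 11 tubule microRNAs had an unadjusted p under 0.05, against 23% of all tested microRNAs. The summed level of 5 urothelial microRNAs was 220.8 to 249.7 scaled units in wild-type and 279.4, 302.1 and 214.0 units in megabladder mice 2, 3 and 4. Of these, miR-205 was at the floor in all wild-type kidneys and at 5.61, 4.41 and 4.21 in the megabladder kidneys (limma, adjusted p = 0.0712). The high sum of mouse 3 came from miR-200c (6.93 log2 units) and miR-141 (6.91), which are found in epithelia in general. miR-203 was lower in mouse 3 than in the other megabladder mice, at 4.34 against 5.57 and 5.44, and miR-205 and miR-31 were highest in megabladder mouse 2. The sum of 11 tubule microRNAs was 5713 to 5952 units in wild-type mice and 6018, 5575 and 5708 units in megabladder mice 2, 3 and 4, lowest in mouse 3. Single tubule microRNAs differed in direction: 6 of the 11, miR-10a, miR-10b, miR-204 and miR-30d among them, were highest in mouse 3 of the megabladder mice, while miR-192 and miR-194 were lowest there. The sum of 2 endothelial microRNAs was likewise lowest in mouse 3, at 1364 units against 1533 to 1668 in the other megabladder and 1565 to 1627 in wild-type mice. The sums of 5 leukocyte (209.6 to 254.0 units), 3 erythroid (1952 to 3724 units) and 2 smooth muscle microRNAs (150.2 to 206.6 units) placed mouse 3 at no upper end. miR-142-5p, miR-150, miR-1 and miR-133a were among the markers not well above background on enough arrays. The part of these cell types in the miR-210 value of mouse 3 was not tested.

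The signs of small differences moved with the scaling, because the median difference over all tested microRNAs went from 0.087 to -0.61 (all mouse probes), -0.50 (unscaled), -0.0999 (quantiles) and -0.058 (median). miR-210 turned to -0.29, -0.19 and -0.0545 with all mouse probes, unscaled and quantiles, while relative to the median of all microRNAs it was 0.20 in the main scaling and 0.045 to 0.32 by the 4 others. miR-34a was 0.53 below that median in the main scaling and 0.54 to 0.56 below it by the others. All of these scalings but quantiles use 1 factor per array, so such relative values agree between them by construction apart from the floor. miR-34b-5p lay within 0.17 of the median on either side, and miR-34c 0.041 to 0.40 below it.

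**Figure D4:**
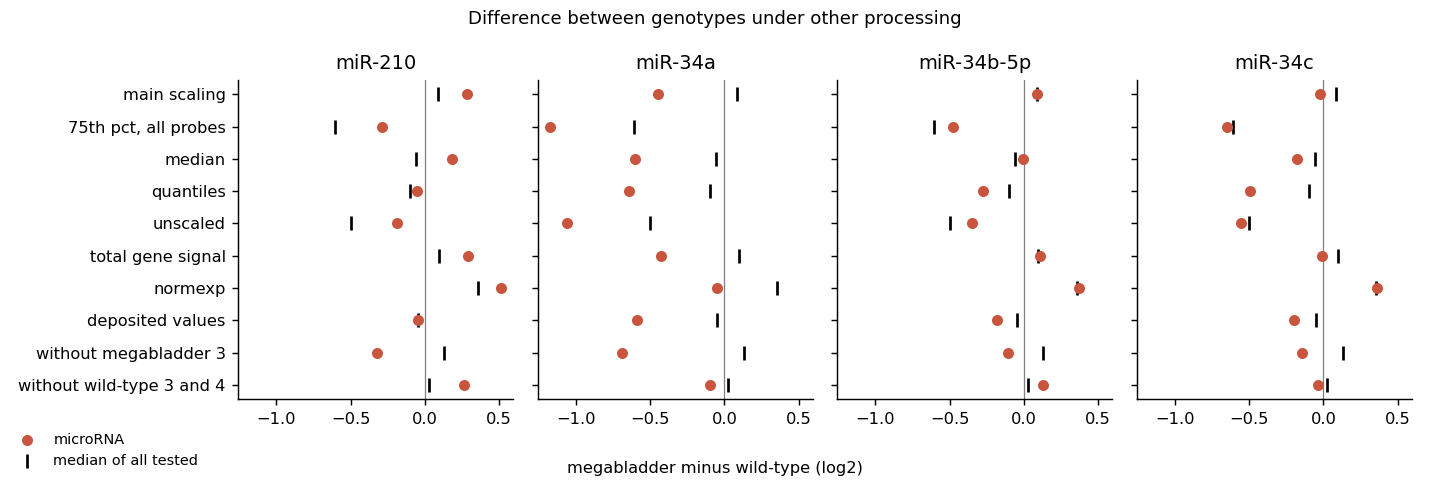
Difference between megabladder and wild-type means (log2, horizontal axis) of the 4 tested members (red points) and median difference of all tested microRNAs (black ticks) under the main processing, 7 other ways of processing and 2 fits without named mice (rows). miR-34a lies left of the median tick in every row, while miR-210 changes side of 0 and moves to -0.32 without megabladder mouse 3.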

How the data were processed

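The authors obtained intensity values with Agilent Feature Extraction (version 10.7.3.1 per the file headers, as in the submitters' processing notes) from 1-colour arrays hybridised with 100 ng of labelled total RNA each. A value table deposited by the authors holds processed intensity values (scaling: not given in the sources used here). All 717 of its rows matched a probe. From the 533rd of 650 names in alphabetical order some values lay over 1 log2 unit from their own signal. The table therefore served as an alternative for the 191 tested microRNAs before that point. Tested members lay a mean of 0.058 (miR-34a), 0.59 (miR-34c), 0.61 (miR-210) and 0.84 (miR-34b-5p) log2 units from their own signal.

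Control spots and outlier spots (3.45% to 3.77% per array) were left out, and 0 spots were saturated. The background-subtracted signal of a probe is the mean of its spots, scaled as described and floored. For the floor, the 1st percentile of probes well above background was taken on each array, and then the median. A probe was called well above background when a share of 0.5 or more of its spots were. The level of a microRNA averages those of its probes that reached this on 3 or more arrays. Genotypes were fitted in limma 3.58.1 (lmFit, eBayes; R 4.3.3), with Benjamini-Hochberg adjustment over 213 microRNAs and a threshold of 0.05. Differences are megabladder minus wild-type. The fit was tested on simulated data.

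Every pair of arrays differed by a median of at least 2.22 standard errors between spots, where noise alone gives 0.674. The main fit did not pair mice by replicate number, since the labels give no pairing. Deviations of same-numbered mice correlated at -0.214, 0.00664 and 0.207 for numbers 2, 3 and 4. The mice numbered 4 correlated best with each other. So few mice cannot decide whether the numbers pair them. The number of arrays limits the precision, and limma p-values set differences against the spread between these mice.

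The members, lists and alternatives were chosen with earlier results of these data known. Named microRNAs are the members, the 3 nearest in pattern to each and up to 3 per list by smallest p. miR-181c as the highest of its list, the repeat-rich families, the markers not above background and the tubule and urothelial markers named for mouse 3 were chosen after their values were seen. RefSeq sequences were matched by name. Normexp (offset 50) used median spot and background signals.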

Additional observations from a re-analysis of the deposited data

How the results depend on the processing

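No tested member passed under any alternative but the replicate block. Under that block miR-34a had -0.68 (limma, adjusted p = 0.0463) and 1 of the 4 members passed. Wild-type mouse 1 has no same-numbered mutant, so under the block it adds nothing to the genotype difference. Leaving wild-type mouse 1 out, with no block, gave -0.67 (limma, adjusted p = 0.233). Same-numbered mice share only a number in the labels, and 1 of 3 numbers had both its mice correlate best with each other. The block moved the count of called microRNAs from 7 to 28. That count was 0 with scaling by all mouse probes, quantiles, total gene signal, normexp, no filter, a floor of 1 unit or the exact permutation test (limma's unadjusted p was under 0.05 for 96, 40, 26, 35, 40 and 30 in the first 6, and the exact p for 28). It was 1 with the deposited values or without wild-type mice 3 and 4, 2 with scaling by the median, 4 with probes well above background on all arrays, 13 with a trend in eBayes, and 69 unscaled (1 higher, 68 lower, against 6 and 1). Leaving out single mice gave 0 to 11 calls, with 0 without wild-type mouse 1, 2 or 3, 1 without wild-type mouse 4 or megabladder mouse 2, and 4 and 11 without megabladder mice 4 and 3 in turn.

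miR-210 was negative with all mouse probes (-0.29), quantiles (-0.0545), unscaled signals (-0.19) and deposited values (-0.0485). With normexp it was 0.51 (limma, unadjusted p = 0.0343, adjusted p = 0.262). Outside the block, unadjusted limma p was under 0.05 for miR-34a with all mouse probes (0.0258), unscaled (0.0433) and without wild-type mouse 1 (0.0497). For miR-34c this held with quantiles (0.0431). Over all tested microRNAs 96, 105, 44 and 40 were under 0.05 in these fits in turn, and 35 with normexp. miR-34b-5p was negative with all mouse probes (-0.48), median scaling (-0.0075), quantiles (-0.27), unscaled signals (-0.35) and deposited values (-0.18), and miR-34c was positive with normexp (0.36). Leaving out single mice gave -0.32 to 0.58 for miR-210, -0.69 to -0.23 for miR-34a, -0.11 to 0.16 for miR-34b-5p and -0.15 to 0.049 for miR-34c. Adjusted p ran from 0.262 to 0.969 for miR-210 and from 0.0463 to 0.978 for miR-34a over all alternatives. Without megabladder mouse 3 the difference of miR-210 relative to miR-34b-5p and to miR-34c reversed, and leaving out single mice gave -0.215 to 0.42 and -0.17 to 0.53 for them. The cause of these changes was not tested, except that scaling factors shift all values of an array alike. Signal near the floor limits miR-34b-5p, miR-34c and the dimmer probe of miR-210, and miR-34b-3p could not be measured.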

Other observations

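Megabladder mouse 3, which had the high miR-210, also held low values of some abundant kidney microRNAs, although 6 of 11 tubule microRNAs were highest in mouse 3 of the 3 megabladder kidneys. miR-192 and miR-194, products of proximal tubule clusters, stood at 9.50 and 7.92 log2 units in mouse 3, against 10.35 and 8.66 in megabladder mouse 2, 10.3 and 8.87 in megabladder mouse 4, and 10.07 to 10.19 and 8.40 to 8.55 in wild-type mice. miR-107, a microRNA on both the hypoxia and the p53 list, was at 8.75 in mouse 3 and at 9.75 and 9.90 in megabladder mice 2 and 4, with 9.45 to 9.92 in wild-type mice. miR-203, which promotes differentiation in stratified epithelium, was at 4.34 against 5.57 and 5.44, with 5.17 to 5.36 in wild-type mice. miR-141 and miR-200c of the epithelial miR-200 family were instead highest in mouse 3, at 6.91 and 6.93, against 6.15 and 6.54 in megabladder mouse 2. These microRNAs were picked after their values were seen, and the contrast of 1 mouse with the others has no test.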
